A study of Macaca mulatta with 9 samples.

Results

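The genes described here are 35 cyclins, mitotic kinases and spindle genes, chosen by symbol. They are the cyclins CCNA2, CCNB1, CCNB2, CCNE1 and CCNE2, the kinases CDK1, CDK2, PLK1, AURKA, AURKB, NEK2, BUB1, BUB1B and TTK, the phosphatases CDC25A and CDC25C, and 19 checkpoint, anaphase, kinetochore, motor and chromosome genes. Of these, 34 had at least 1 probe set on the array and CENPE, a kinetochore motor, had none under its symbol. The 34 genes carried 65 probe sets, out of 52763 probe sets and 19786 named genes in all, and each gene was represented by its probe set with the highest mean level.

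Cyclins are the regulatory subunits of cyclin-dependent kinases, and their periodic synthesis and destruction order the steps of the cell cycle. Cyclin E with CDK2 acts at entry into DNA replication, cyclin A during replication and cyclin B with CDK1 at entry into mitosis, when PLK1 and the Aurora kinases build the spindle and the checkpoint holds back chromosome separation until every kinetochore is attached. The RNAs of most of these genes accumulate in late cycle phases under FOXM1, B-MYB and the MuvB complex, and embryonic stem cells are known for short gap phases and a large share of cells in replication.

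The samples were rhesus macaque (Macaca mulatta) cells on Affymetrix Rhesus arrays, 1 array per RNA sample and 9 in all. Embryonic stem (ES) cells, the pluripotent cells of the early embryo, came from 5 lines named ORMES6, ORMES7, ORMES9, ORMES10 and ORMES13. ORMES6 was measured as biological replicates A, B and C and every other line once, so each line other than ORMES6 is represented by 1 culture. The lines were kept on mouse embryonic fibroblast feeder layers made unable to divide, in medium with 15% serum and 4 ng/ml FGF2, and colonies with good morphology were lifted by hand for RNA. The embryoid body (EB) array held pooled aggregates left to differentiate for 30 days in ES medium from which FGF2 was removed. The labels give their culture in 2 ways, as ultra-low adhesion dishes throughout or as a week of suspension followed by gelatin-coated dishes, and do not name the lines that were pooled. The fibroblast array held adult skin fibroblasts grown in medium with 10% serum and harvested when confluent. Both differentiated samples were thus single arrays whose own spread was not measured.

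The deposited signals had been scaled to the same trimmed mean on every array. ES cell markers (POU5F1, NANOG, SOX2, LIN28A and DNMT3B) were Present in all 5 lines, and their signals summed to 18973 to 28750 in ES cells, 2602 in the EBs and 48.6 in the fibroblasts. Most of the EB sum was SOX2 (1921), with 148.1 for POU5F1, 28.2 for NANOG, 181.7 for LIN28A and 322.9 for DNMT3B. Hybridisation spikes, transcripts added at a known amount, were at 588.2 to 1173 with ES cells, 521.9 with the EBs and 890.0 with the fibroblasts. Actin signal at the 3' end over that at the 5' end, a sign of RNA integrity, was 22.7 to 66.2 in ES cells, 7.15 in the EBs and 13.1 in the fibroblasts, so this ratio cannot be told apart from cell type in either comparison. Levels are deposited signals, and differences are on the log2(signal + 16) scale as ES lines minus the other sample, with the standard error (SE) from limma over 5 lines against 1 array. Folds are taken from that scale, which understates the change of low genes. "Called" means an adjusted p under 0.05 by limma with Benjamini-Hochberg adjustment over all 19786 genes.

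The mitotic genes were higher in the ES lines than in the fibroblasts almost without exception. Of 34 members, 31 were called higher and 0 lower, against 13.1% of all genes called higher and 8.08% called lower. Over all genes these are 2599 and 1598 calls, a split that centring each array on its median turned to 1755 and 2213 while 31 members stayed called higher. The median member differed by 2.74 (6.70-fold), against 0.25 for the median gene, and called members ran from PRC1 at 1.62 to CDC20 at 3.64, with adjusted p from 0.0201 to 3.35e-05. The fibroblast signal lay below all 7 ES arrays for 34 of 34 members, against 36.3% of all genes. Required to differ by more than 2-fold (limma's treat test), 27 members stayed called, against 3.52% of all genes. CCNE2, CDK2 and AURKB were not called. Fewer dividing cells and less of each RNA per cell cannot be told apart in such bulk samples. All 31 members with a deposited detection p on the fibroblast array were Present there, so these RNAs were low in the fibroblasts but detected by the brightest probe set. Such p-values exist for 12094 probe sets, of which 8413 were Present and 3543 Absent, and CCNE2, CDK2 and AURKB had none. Another probe set each of BIRC5, CDC25A, CENPA and KIF23 was Absent in the fibroblasts.

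Against the EBs the differences were smaller and split the members. Of 34 members, 17 were called higher in the ES lines and 0 lower, where 2.74% of all genes were called higher and 3.13% lower. Among the 9400 genes with a mean of at least 7, 678 were called higher and 368 lower, and 18 of 32 members were called higher. The median member differed by 1.34 (2.54-fold), against 0.04 for the median gene, and called members ran from CDC20 at 1.29 to BUB1 at 2.12, with adjusted p from 0.0414 to 0.0035. The EB signal was below all 7 ES arrays for 27 members, against 21.0% of all genes, above all of them for CCNE2 and CDK2, and within their range for CDK1, MAD2L1, TPX2, PRC1 and AURKB. Of the 34, 0 were called beyond 2-fold by limma's treat test (12 at an unadjusted p under 0.05), which called 0.106% of all genes higher. A further 6 members had adjusted p between 0.05 and 0.1. The calls did not hold in every fit. With the log2 spike level as a covariate, which uses 1 of the 4 residual degrees of freedom, 0 members and 8 genes in all were called by limma, while 22 members had an unadjusted p under 0.05, 31 stayed above 0 and the median member was at 1.37. The EB array had the lowest spike level of the 9, and the ES arrays nearest to it, ORMES6 A and B at 611.3 and 588.2, were both above the EB array in 30 of 34 members. Their mean exceeded the EB array by more than 2-fold in 27 members, against 6.98% of all genes, with a median of 1.34 against -0.05 for all genes. These are 2 arrays of 1 line and the value has no test.

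**Figure D1:**
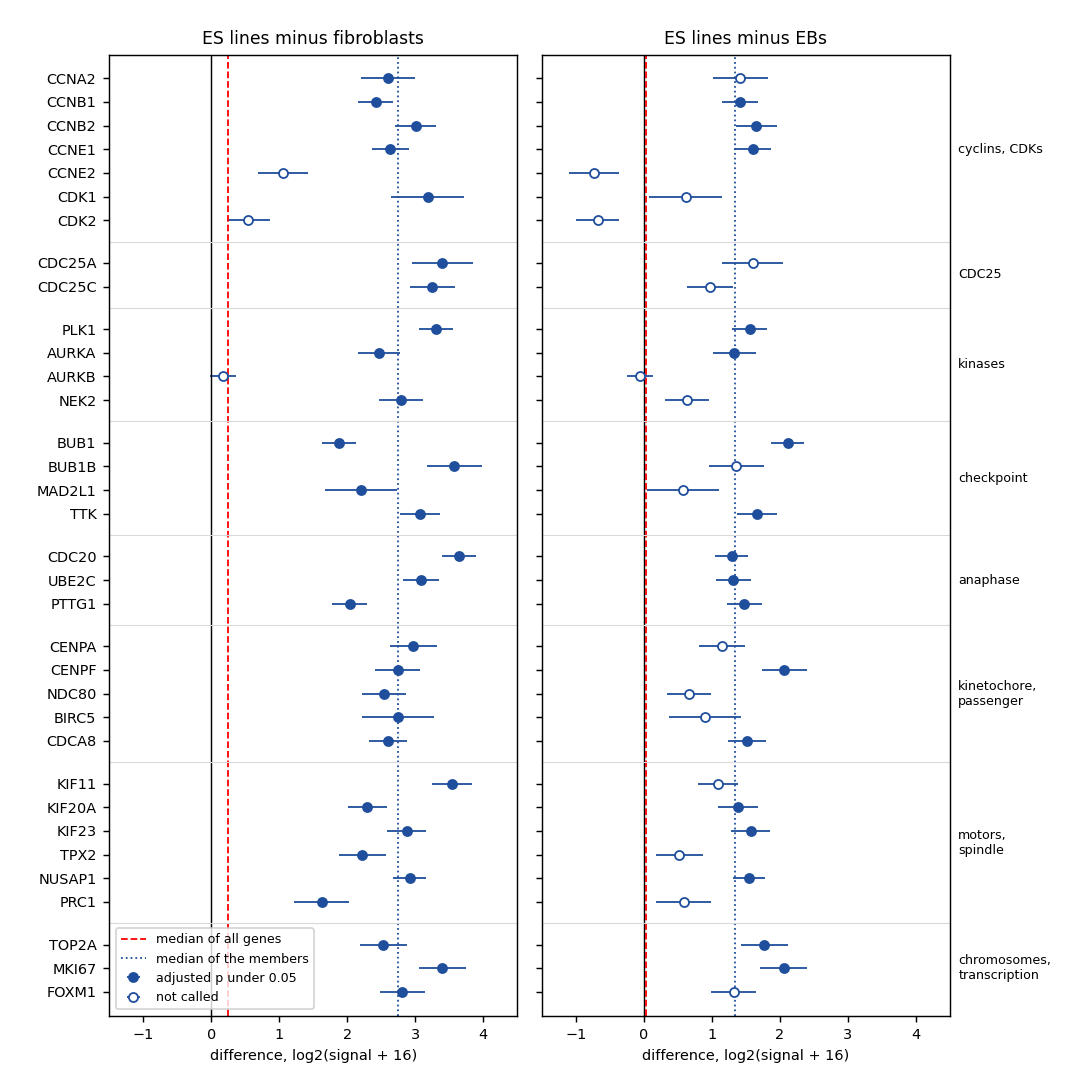
Difference of the 5 ES lines from the fibroblast array (left) and the EB array (right) for each of 34 members, on the log2(signal + 16) scale. Points are limma estimates with 1 SE, filled where the adjusted p is under 0.05, the dashed line is the median of all genes (0.25 and 0.04) and the dotted line the median of the members (2.74 and 1.34). The 31 filled points on the left all lie at 1.62 or more, while 17 are filled on the right.

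Both comparisons use the same ES arrays, so their values for a gene are given side by side and not as separate evidence. Set among all genes, most members lie on the right side of each distribution.

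**Figure D2:**
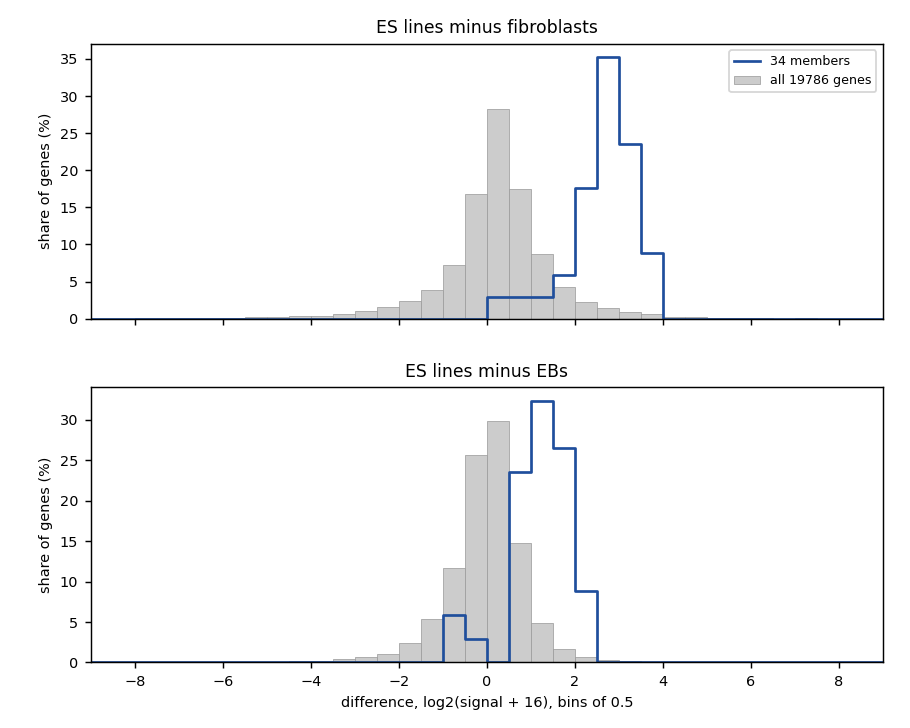
Share of all 19786 genes (grey bars) and of the 34 members (blue line) in each bin of 0.5 of the difference on the log2(signal + 16) scale, for ES lines minus fibroblasts (top) and ES lines minus EBs (bottom). All members lie above 0 in the top panel and 31 of 34 lie above 0 in the bottom panel.

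Among the cyclins, those of replication and mitosis were high in ES cells and the cyclin E pair was split. CCNB1, the main partner of CDK1, gave signals of 6814, 6524 and 6782 on ORMES6 A, B and C, 5439.5 on ORMES7, 4679 on ORMES9, 4608 on ORMES10 and 5286 on ORMES13, against 1981 in the EBs and 979.0 in the fibroblasts. Every ES array was thus more than 2-fold above both differentiated arrays. The difference was 2.42 ± 0.26 against the fibroblasts (adjusted p = 0.000324) and 1.41 ± 0.26 against the EBs (adjusted p = 0.0192). CCNB2, the second B cyclin, had 1967 to 3637 on the ES arrays, 811.2 in the EBs and 308.5 in the fibroblasts, and was called in both comparisons (3.00 ± 0.30 and 1.65 ± 0.30). CCNA2 had 2280 and 2372 on ORMES6 A and B, 3159 on C, 3420.3 on ORMES7, 1589 on ORMES9, 2945 on ORMES10 and 3304 on ORMES13, against 989.5 and 429.9 in the EBs and fibroblasts. ORMES9 stood lowest, yet no ES array overlapped either differentiated array. Its difference was called against the fibroblasts (2.59 ± 0.40, adjusted p = 0.00203) and missed the threshold against the EBs (1.42 ± 0.40, adjusted p = 0.0733). Leaving out the ORMES9 array brought that adjusted p to 0.0270. This was the only 1 of 18 alternative fits that called CCNA2 against the EBs.

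CCNE1, which drives entry into replication, had 1149 to 1779 on the ES arrays, 500.5 in the EBs and 235.8 in the fibroblasts, and was called in both comparisons (2.63 ± 0.28 and 1.60 ± 0.28). Its paralog CCNE2 was dim throughout, at 53.2 to 79.4 on the ES arrays, 118.4 in the EBs and 23.0 in the fibroblasts. The EB array lay above all 7 ES arrays, the opposite side from CCNE1, but neither difference was called (1.05 ± 0.37, adjusted p = 0.0751, and -0.73 ± 0.37, adjusted p = 0.298). The difference between the paralogs was not tested. CDK2, the partner of both E cyclins, had the same order of samples as CCNE2 in the brightest probe sets. It had 314.0 to 493.3 on the ES arrays, 651.3 in the EBs and 270.0 in the fibroblasts, and was not called either (0.54 ± 0.32, adjusted p = 0.271, and -0.68 ± 0.32, adjusted p = 0.257). That probe set was Absent in ORMES6 and ORMES10, Marginal in ORMES7 and Present in ORMES9 and ORMES13, so its level is near the detection limit of the probe set. The other probe set of CDK2, Present in 4 lines, had 39.0 to 106.0 on the ES arrays and 60.1 in the EBs. The other probe set of CCNE2, Present in 1 line, had 8.0 to 38.9 and 13.9. In both the EB array lay within the ES range, so its place above the ES arrays depends on the probe set.

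CDK1, the kinase of mitotic entry, was the member that varied most among the ES lines. Its signals were 1903, 2314 and 1602 on ORMES6 A, B and C, 1109.7 on ORMES7, 1373 on ORMES10, 697.3 on ORMES13 and 652.5 on ORMES9, against 687.7 in the EBs and 102.5 in the fibroblasts. The EB level therefore fell among the ES arrays, just above ORMES9 and just below ORMES13, whereas every ES array was above the fibroblasts. The difference was 3.18 ± 0.54 against the fibroblasts (adjusted p = 0.00333) and 0.61 ± 0.54 against the EBs (adjusted p = 0.579). The phosphatases that remove the inhibitory phosphates from these kinases were both called against the fibroblasts and not against the EBs. CDC25A had 761.6 to 2497 on the ES arrays, 519.7 in the EBs and 137.7 in the fibroblasts (3.40 ± 0.45 and 1.60 ± 0.45, adjusted p = 0.0749 for the EBs). CDC25C had 320.6 to 533.2, 182.0 and 24.9 (3.25 ± 0.33 and 0.97 ± 0.33, adjusted p = 0.128 for the EBs).

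**Figure D3:**
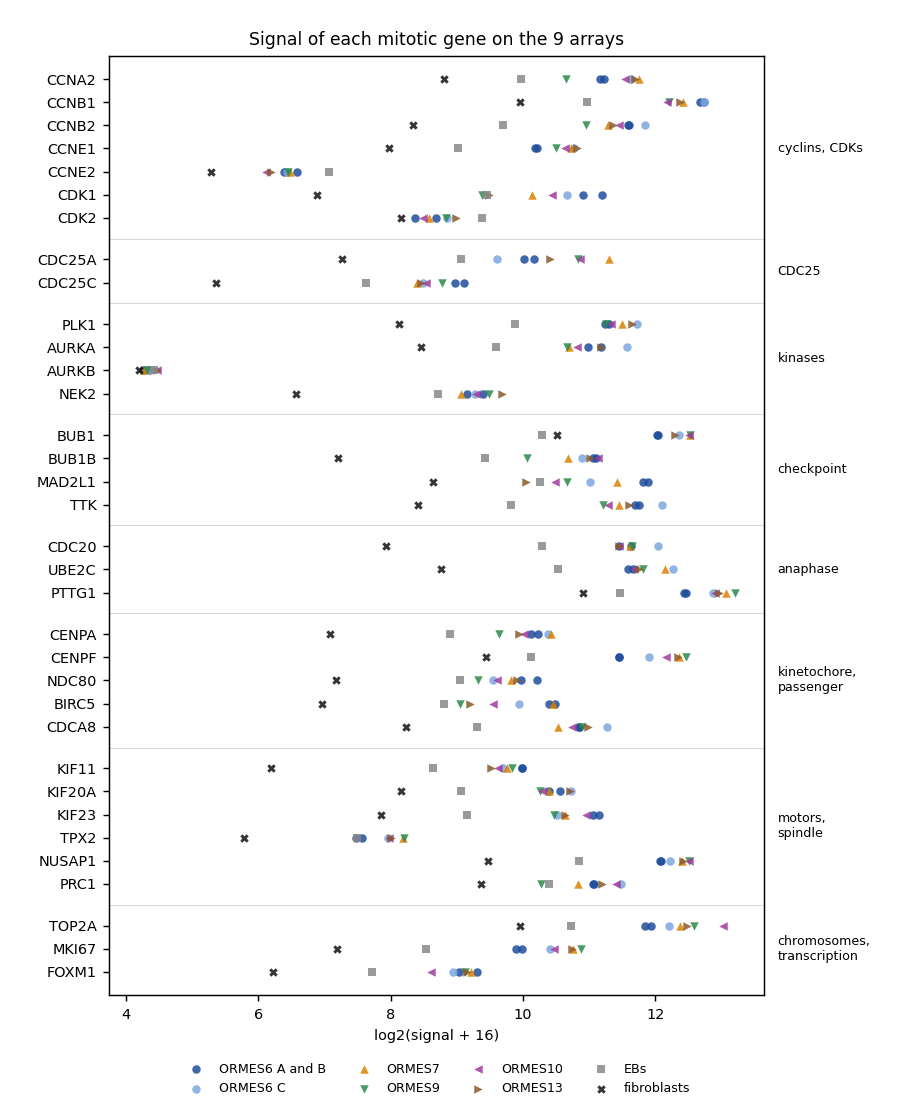
Signal of each member on the 9 arrays, as log2(signal + 16), 1 point per array, with rows grouped by role. Levels can be compared along a row and not between rows, since each gene has its own probes. The fibroblast cross is leftmost in every row but that of BUB1, and the EB square lies between it and all ES points in 26 rows.

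Of the mitotic kinases, PLK1, which acts at centrosomes, kinetochores and the site of division, spanned 0.38 between the lines on the log2 scale. It had 2401, 2512 and 3350.1 on ORMES6 A, B and C, 2882 on ORMES7, 2432 on ORMES9, 2564 on ORMES10 and 3180.3 on ORMES13, against 924.6 in the EBs and 263.6 in the fibroblasts. The groups did not overlap, and the difference was 3.30 ± 0.26 against the fibroblasts (adjusted p = 6.2e-05) and 1.55 ± 0.26 against the EBs (adjusted p = 0.0131). AURKA, the spindle pole kinase, had 1604 to 3036 on the ES arrays, 754.6 in the EBs and 334.6 in the fibroblasts. It was called in both comparisons, but against the EBs only barely (1.33 ± 0.31, adjusted p = 0.0414), and leaving out ORMES6 C or any 1 line raised that adjusted p to between 0.0527 and 0.0804. NEK2, which parts the centrosomes, had 517.1 to 801.1 on the ES arrays, 405.0 in the EBs and 78.6 in the fibroblasts, a difference of 2.79 ± 0.32 against the fibroblasts and 0.64 ± 0.32 against the EBs (adjusted p = 0.299). AURKB, the kinase of the chromosomal passenger complex, was not measured in any useful sense: its only probe set was Absent in all 5 lines and gave signals of 3.0 to 6.1 on the ES arrays, 5.5 in the EBs and 2.3 in the fibroblasts. No fold is given for it, and nothing follows about the gene.

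The spindle checkpoint genes were all called against the fibroblasts. BUB1, a kinetochore kinase, had the largest difference from the EBs of any member. Its signals were 4166, 4194 and 5237 on ORMES6 A, B and C, 5860.5 on ORMES7, 5844 on ORMES9, 5816 on ORMES10 and 4986 on ORMES13, against 1227 in the EBs and 1449 in the fibroblasts. It was the only member of the 34 whose brightest probe set was lower in the EBs than in the fibroblasts, an order that its other probe sets did not share. The difference was 2.12 ± 0.24 against the EBs (adjusted p = 0.0035) and 1.88 ± 0.24 against the fibroblasts (adjusted p = 0.000861). BUB1B, which encodes the checkpoint protein BubR1, had 1056 to 2225 on the ES arrays with ORMES9 lowest, 668.9 in the EBs and 131.8 in the fibroblasts (3.57 ± 0.40, and 1.36 ± 0.40 with adjusted p = 0.0849 for the EBs). TTK, the kinase that starts checkpoint signalling, had 2353 to 4368, 881.7 and 322.7 and was called in both comparisons (3.07 ± 0.30 and 1.67 ± 0.30). MAD2L1, the inhibitor of CDC20, had 3761 and 3561 on ORMES6 A and B, 2056 on C, 2723 on ORMES7, 1600 on ORMES9, 1412 on ORMES10 and 1037 on ORMES13, against 1207 in the EBs and 380.8 in the fibroblasts. ORMES13 was below the EBs and ORMES6 A and B far above. MAD2L1 was called against the fibroblasts (2.20 ± 0.53, adjusted p = 0.0174) and not against the EBs (0.58 ± 0.53, adjusted p = 0.595).

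All 3 genes of anaphase control were called in both comparisons. CDC20, the activator of the anaphase-promoting complex, had the largest difference from the fibroblasts and the smallest called difference from the EBs. Its signals were 3153, 2775 and 4174 on ORMES6 A, B and C, 3134 on ORMES7, 3180.2 on ORMES9, 2792 on ORMES10 and 2773 on ORMES13, against 1229.5 in the EBs and 228.3 in the fibroblasts. Apart from ORMES6 C the ES arrays lay between 2773 and 3180.2, well above both other arrays. The difference was 3.64 ± 0.24 (adjusted p = 3.35e-05) and 1.29 ± 0.24 (adjusted p = 0.0202). UBE2C, the ubiquitin-conjugating enzyme of that complex, had 3052 to 4915, 1459 and 417.1 (3.08 ± 0.26 and 1.31 ± 0.26). PTTG1, which encodes securin, the inhibitor of separase, had 5506 to 9369, 2808 and 1903 (2.04 ± 0.26 and 1.48 ± 0.26).

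Kinetochore, centromere and passenger genes were called against the fibroblasts in 5 of 5 measured cases and against the EBs in 2. CENPF, a late-cycle kinetochore protein, had 2790.2 and 2771 on ORMES6 A and B, 3815 on C, 5221 on ORMES7, 5637 on ORMES9, 4551 on ORMES10 and 5158 on ORMES13, against 1099 in the EBs and 678.6 in the fibroblasts. ORMES6 was lowest among the lines but still more than 2-fold above the EBs, and CENPF was called in both comparisons (2.74 ± 0.33, and 2.06 ± 0.33 with adjusted p = 0.0121). CDCA8, the passenger subunit borealin, was called in both as well (1461 to 2443 on the ES arrays, 616.2 and 283.5, with differences of 2.60 ± 0.28 and 1.52 ± 0.28). CENPA, the centromeric histone, had 782.9 to 1355, 461.5 and 119.1, a difference of 2.97 ± 0.34 from the fibroblasts and 1.15 ± 0.34 from the EBs (adjusted p = 0.0849). NDC80, which binds microtubules at the kinetochore, had 618.8 to 1172, 510.9 and 128.3 (2.53 ± 0.32, and 0.66 ± 0.32 with adjusted p = 0.280). BIRC5, which encodes the passenger protein survivin, had 512.3 to 1416, 431.9 and 108.2 (2.74 ± 0.53, and 0.89 ± 0.53 with adjusted p = 0.383), with ORMES9 and ORMES13 near the EB level.

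All 6 motor and spindle genes were called against the fibroblasts and 3 of them against the EBs. KIF11, the motor that pushes spindle poles apart, had 993.5, 998.3 and 815.7 on ORMES6 A, B and C, 845.1 on ORMES7, 896.3 on ORMES9, 774.9 on ORMES10 and 718.4 on ORMES13, against 382.5 in the EBs and 56.6 in the fibroblasts. The ES arrays lay close together, and the difference was 3.54 ± 0.29 against the fibroblasts (adjusted p = 8.68e-05) and 1.09 ± 0.29 against the EBs (adjusted p = 0.0646). The motors of the central spindle KIF20A and KIF23 were called in both comparisons, at 1.38 ± 0.29 and 1.57 ± 0.29 against the EBs, though KIF20A lost that call without ORMES7 (adjusted p = 0.0577) or without ORMES10 (adjusted p = 0.0573). NUSAP1, which bundles spindle microtubules, had 4283 to 5834 on the ES arrays, 1830.3 in the EBs and 695.2 in the fibroblasts (2.92 ± 0.24 and 1.54 ± 0.24). PRC1, which crosslinks midzone microtubules, had the smallest called difference from the fibroblasts (1.62 ± 0.40, adjusted p = 0.0201), with 1216 on ORMES9 below the 1333 of the EBs and the other ES arrays at 1805 to 2844. TPX2, the activator of AURKA, had 161.2 and 172.7 on ORMES6 A and B next to 163.1 in the EBs, 232.7 to 277.3 on the other ES arrays and 39.1 in the fibroblasts (2.22 ± 0.35, and 0.52 ± 0.35 with adjusted p = 0.446).

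The 3 genes of chromosomes and transcription were called against the fibroblasts and 2 of them against the EBs. MKI67, the proliferation marker Ki-67 that coats mitotic chromosomes, had 998.8, 929.2 and 1336 on ORMES6 A, B and C, 1703 on ORMES7, 1852 on ORMES9, 1395 on ORMES10 and 1692 on ORMES13, against 353.1 in the EBs and 129.2 in the fibroblasts. Both differentiated arrays lay well below the lowest ES array, and the differences were 3.40 ± 0.34 (adjusted p = 0.000217) and 2.05 ± 0.34 (adjusted p = 0.0132). TOP2A, the topoisomerase that disentangles sister chromatids, had 3650.3 to 8324, 1671 and 978.7 (2.53 ± 0.34 and 1.77 ± 0.34). FOXM1, a transcription factor of late-cycle genes, had 373.4 to 614.9 on the ES arrays, 194.3 in the EBs and 58.7 in the fibroblasts, a difference of 2.81 ± 0.34 from the fibroblasts and 1.32 ± 0.34 from the EBs (adjusted p = 0.0556).

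The second readout of these genes comes from their other probe sets. Of the 34 members, 14 had 1 probe set and 20 had several, up to 5. All 65 probe sets were above 0 against the fibroblasts and 59 against the EBs. At the probe set level, adjusted over 52763 probe sets, 44 were called higher against the fibroblasts and 0 lower (6.44% of all probe sets were called higher), and 21 against the EBs and 0 lower (0.912% called higher). The 15 other probe sets that were Present in all 5 lines had a median difference of 2.17 and 1.21, with 11 and 4 called. The 12 that were Present in 1 to 4 lines had medians of 0.87 and 0.43, with 1 and 0 called. The 4 that were Present in 0 lines had medians of 0.64 and 0.29, with 1 called in each comparison. Detection was taken here in the ES lines only, which favours probe sets that are high there. The grouping is thus no separate evidence for the differences. Taking the median over a gene's probe sets, dim ones included, left 29 members called against the fibroblasts and 12 against the EBs. The calls lost against the EBs were those of CCNB2, PLK1, CENPF, NUSAP1 and MKI67. CCNB2 was the extreme case: its bright probe set was called in both comparisons, whereas its other probe sets gave signals of 2.9 to 32.3 on all 9 arrays and were Present in 2 and 0 lines, so its median turned to -0.028 against the EBs.

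Among well-detected other probe sets, some gave the same calls as the first and some did not. The second probe set of CCNB1 had 4619 to 6012 on the ES arrays, 1523 in the EBs and 758.6 in the fibroblasts, a difference of 2.78 and 1.79. For BUB1 a second probe set had 2028 to 2716, 638.2 and 456.7 and was called in both comparisons (2.27 and 1.80), but there the EB level lay above the fibroblast level, the reverse of the order in the brightest probe set. The same reverse order held in the remaining probe sets of BUB1, with 582.1, 23.4 and 20.9 in the EBs against 518.6, 6.0 and 6.4 in the fibroblasts. The other probe sets of CDK1 and MAD2L1 were Present in all 5 lines and were not called against the fibroblasts, unlike the brightest ones. For CDK1 they gave 1.19 (adjusted p = 0.114) and 0.80 (adjusted p = 0.378), and for MAD2L1 1.87 (adjusted p = 0.132). Against the EBs no probe set of either gene was called, with 0.61, 0.31 and -1.15 for CDK1 and 0.58 and -0.03 for MAD2L1. For MKI67, CENPF and TOP2A the brightest probe set was called against the EBs, but others Present in all 5 lines were not. These gave 1.18 (adjusted p = 0.211) and 0.11 (adjusted p = 0.918) for MKI67. They gave 1.21 (adjusted p = 0.131) for CENPF and 1.25 (adjusted p = 0.0549) for TOP2A. The second probe set of PTTG1 was called there (1.48).

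**Figure D4:**
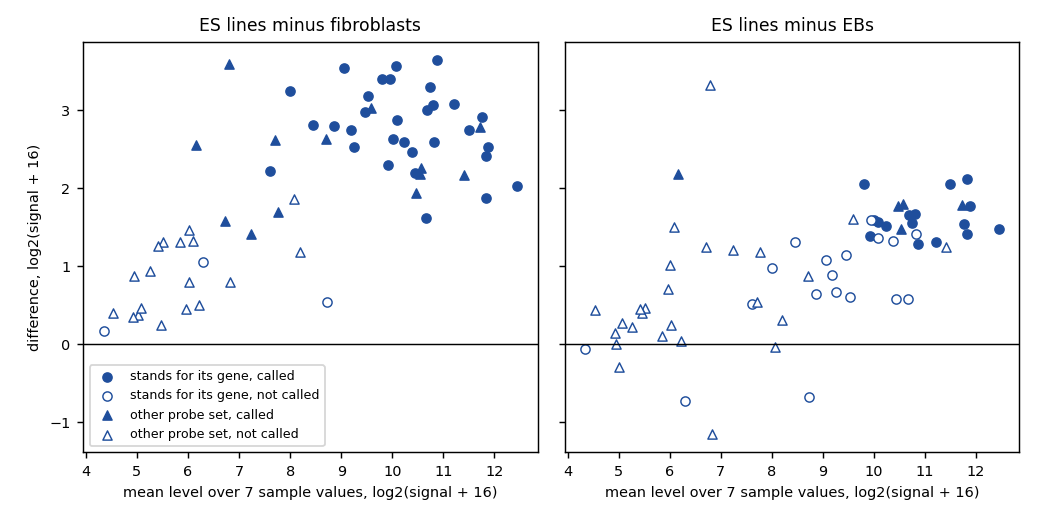
Each of the 65 probe sets of the members, with its mean level over the 5 line values, the EB array and the fibroblast array on the horizontal axis and its difference on the vertical axis, both as log2(signal + 16). Circles stand for their gene and triangles are other probe sets, filled where called at an adjusted p under 0.05 over 52763 probe sets. Of the probe sets, 44 are filled on the left and 21 on the right, and most of the open symbols on the left are dim.

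The EBs lay between the fibroblasts and the ES cells. The EB signal exceeded the fibroblast signal in 33 of 34 members, by more than 2-fold in 28, against 18.2% of all genes. No member was more than 2-fold higher in the fibroblasts, against 8.51% of all genes. The median member was 1.39 higher in the EBs and the median gene 0.20. CDK1 had the largest such difference (2.57), followed by KIF11 (2.46), CDC20 (2.35) and CDC25C (2.28), and the smallest apart from BUB1 (-0.24) and AURKB (0.23) was that of PTTG1 (0.56). In 26 members the order was fibroblasts, then EBs, then all 7 ES arrays, an order found in 10.2% of all genes. These are differences of 2 lone arrays and carry no test.

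Among the ES lines no member was called as different between lines. Limma's F test, whose error comes from the ORMES6 replicates, called 0 of 34 members and 0.445% of all genes. At an unadjusted p under 0.05 it gave 6 members (17.6%), against 12.9% of all genes, a difference that was not tested. The lowest adjusted p among the members was 0.199 for CDK1. The median range over the 5 lines was 0.59 for the members and 0.83 for all genes. The count of calls rests on ORMES6 replicate C. Without it the F test called 21 members (61.8%), against 33.0% of all genes, while without replicate A or without replicate B it called 0 members and 0 genes. At an unadjusted p under 0.05 it gave 1 member without A, against 5.62% of all genes, and 0 without B, against 5.20%. The median absolute difference between A and B was 0.09 in the members, against 0.42 between C and the mean of A and B, where all genes had 0.18 and 0.37. With all 3 replicates, the median SD was 0.25 between them and 0.23 between the 5 lines. The SD between lines exceeded that between replicates in 20 members, and in 58.4% of all genes. For CDK1 it was 0.65 against 0.26, and for BUB1B 0.43 against 0.11. Replicate C was above both A and B in 20 members (58.8%) and below both in 10 (29.4%), near the 50.5% and 31.0% of all genes.

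Some members nevertheless spanned at least 2-fold between lines. There were 8 of these at the offset of 16, against 35.7% of all genes. By their range on the log2 scale they were CDK1 (1.53), MAD2L1 (1.53), BIRC5 (1.40), CDC25A (1.37), PRC1 (1.14), CCNA2 (1.10), BUB1B (1.06) and TOP2A (1.03). ORMES6 was the highest line for CDK1 and MAD2L1 in every one of their probe sets. ORMES7 was highest and ORMES9 lowest for CCNA2 in both probe sets, and ORMES10 highest and ORMES6 lowest for TOP2A in both. The second probe set of TOP2A spanned only 0.49, however. The pattern of BIRC5 held less well: ORMES9 was lowest in the brightest probe set (512.3), but in the second one, with a range of 0.65, it had 276.4 and ORMES10 was lowest. For CDC25A the second probe set, Present in all 5 lines, spanned only 0.39, with ORMES10 lowest where the brightest had ORMES6. Its dimmest probe set gave 25.5 and 29.0 on ORMES6 A and B against 324.0 on C and 131.5 to 420.0 in the other lines, a split between replicates of 1 line. ORMES9 was the lowest line in 13 of 34 members (38.2%), against 21.2% of all genes. ORMES6 was the highest in 11 (32.4%), against 15.6% of all genes, but also the lowest in 9 (26.5%), against 23.9%. The line medians against the fibroblasts were close to each other, from 2.59 on ORMES9 to 2.85 on ORMES7, and against the EBs they ran from 1.21 on ORMES9 to 1.47 on ORMES7.

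**Figure D5:**
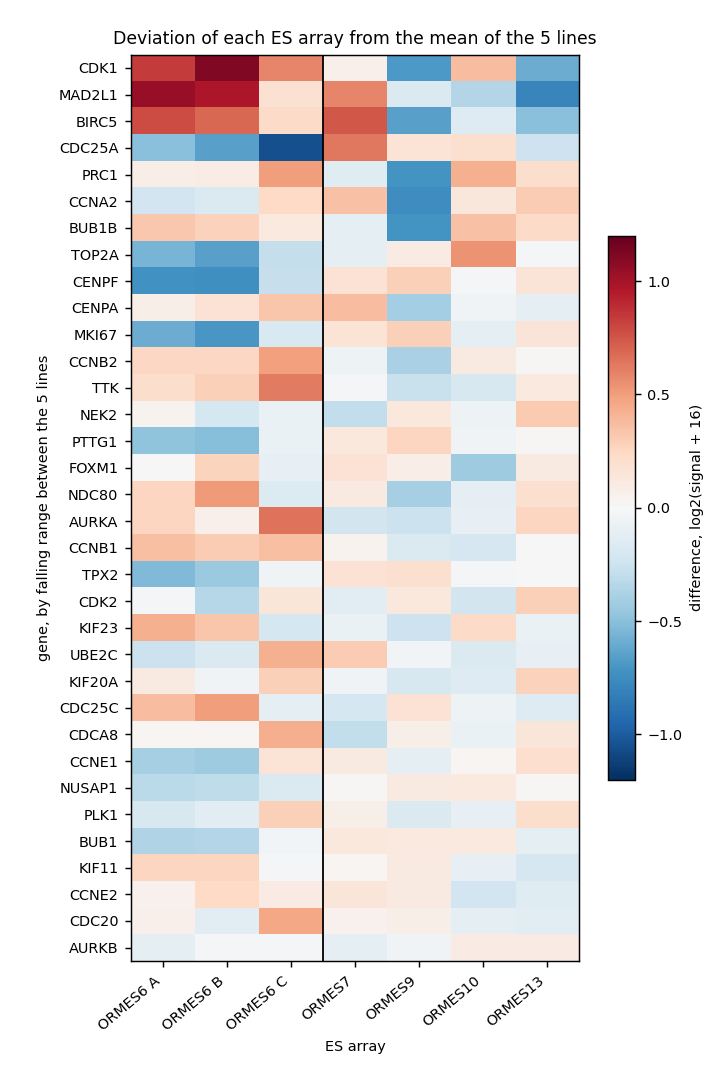
Deviation of each of the 7 ES arrays from the mean of the 5 lines for each member, on the log2(signal + 16) scale, with genes ordered by their range between lines. Red is higher and blue lower, and the black line parts the ORMES6 replicates from the lines with 1 array. CDK1, MAD2L1 and BIRC5 are red on ORMES6 A and B, whereas CENPF, TOP2A and MKI67 are blue there, and ORMES6 C is paler for most of these 6 genes.

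Markers of other cells differed between these lines. The 10 fibroblast genes, which the mouse feeder cells would also express, had summed signals of 3255 to 6140 on the ORMES6 arrays, 5262 on ORMES7, 9435 on ORMES9, 17481 on ORMES10 and 24544 on ORMES13, against 35104 in the EBs and 42404 in the fibroblasts. Most of the sum on the ORMES6 arrays (1807 to 3819) and on ORMES7 (3111) was THY1. This gene went the other way, being called higher in the ES lines than in the fibroblasts (1.93, adjusted p = 0.00215). Against the fibroblasts the member median was highest on ORMES7 (2.85) and ORMES13 (2.81) and lowest on ORMES9 (2.59). It was 2.76 for ORMES6 and 2.72 for ORMES10. Whether these medians go with the marker sums was not tested. The 6 neural markers summed to 4064 to 6983 on the ES arrays, 9285.5 in the EBs and 950.3 in the fibroblasts, and most of the ES sum was NES (3064 to 6347). Of these markers 4 were called lower in the ES lines than in the EBs, FABP7 (-5.39), DCX (-4.43), PAX6 (-3.17) and SOX1 (-2.67), with a list median of -2.92. The endoderm list ran from 504.6 on ORMES7 to 6949.5 on ORMES13, with 840.7 in the EBs and 348.0 in the fibroblasts, and ALB was Absent in all 5 lines. Of the 5 cardiac and muscle markers measured, MYH6, MYH7 and DES were Absent in all 5 lines, TNNT2 was Present in 3 and ACTC1 in 5. The cardiac sum was 497.1 to 3645 on the ES arrays, 2094 in the EBs and 149.6 in the fibroblasts. ACTC1, with 340.2 to 3503 on the ES arrays, was called higher than in the fibroblasts (4.38, adjusted p = 0.0167), and DES lower than in the EBs (-2.13, adjusted p = 0.0125). The part of other cells in the differences of the members was not tested.

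Other genes of the same processes behaved much like the members. Of 46 further mitotic genes 44 were measured. Against the fibroblasts 36 were called higher and 0 lower, with a median of 2.53, and against the EBs 19 and 0, with a median of 1.31. The largest differences from the fibroblasts were those of the kinesin KIF15 (4.04 ± 0.34), the spindle protein TACC3 (4.03 ± 0.38), the F-box protein cyclin F encoded by CCNF (3.82 ± 0.54) and the centriole kinase PLK4 (3.76 ± 0.30). Against the EBs CCNF (2.27 ± 0.54), the protease separase encoded by ESPL1 (2.25 ± 0.37), CDCA3 (2.21 ± 0.31) and the CDK1-inhibiting kinase WEE1 (1.93 ± 0.36) led. WEE1 had 2272 to 4378 on the ES arrays, 873.7 in the EBs and 1068 in the fibroblasts.

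The structural machinery was less uniform. Among condensin and cohesin subunits, 5 of 12 measured were called higher against the fibroblasts and 3 against the EBs, with 0 lower. They were led by the condensin subunit SMC2 (3.10 ± 0.28, and 1.55 ± 0.28 for the EBs), whereas the cohesin subunits RAD21 (0.36 and -0.03) and STAG2 (-0.09 and 0.18) were not called in either comparison. Of 13 subunits and partners of the anaphase-promoting complex, 0 were called by limma against the fibroblasts (2 at an unadjusted p under 0.05) and 1, ANAPC4 (1.88 ± 0.41), against the EBs, in contrast to their activator CDC20 and their enzyme UBE2C. The contrast itself was not tested. The subunit CDC27, for example, had 969.1 to 1183 on the ES arrays, 812.9 in the EBs and 1249.9 in the fibroblasts.

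The upstream regulators went in both directions. Of 17 measured G1 cyclins, RB family and E2F genes, 8 were called higher against the fibroblasts and 1 lower, and against the EBs 0 higher and 1 lower. E2F5 was at 2.96 ± 0.34 and the E2F partner TFDP2 at 2.47 ± 0.30 against the fibroblasts. The D-type cyclin CCND3 was the lower one in both (-2.88 ± 0.31, and -1.26 ± 0.31), with 151.0 to 215.6 on the ES arrays, 424.8 in the EBs and 1337 in the fibroblasts. RB1 itself had 1512 to 2136 on the ES arrays, 1765 in the EBs and 1836 in the fibroblasts, with differences of -0.002 and 0.05. All 3 measured genes of the 6 listed for MuvB and MYB were called against the fibroblasts. MYBL2, which encodes B-MYB, had 955 to 2272 on the ES arrays, 365.6 in the EBs and 25.7 in the fibroblasts, where it was Absent (5.10 ± 0.39, and 1.91 ± 0.39 with adjusted p = 0.0283 for the EBs). Among 7 inhibitors of cyclin-dependent kinases 0 were called higher and 2 lower against the fibroblasts, and 0 and 3 against the EBs. CDKN1A, which encodes p21, had 164.4 to 329.3 on the ES arrays, 2515 in the EBs and 4529.6 in the fibroblasts, with differences of -4.12 ± 0.40 and -3.27 ± 0.40. It thus ran opposite to the members, although the EBs again lay between.

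The authors' deposited tables gave another view of the EB comparison from the same arrays. In the authors' deposited table of signal log ratios, the median member was at 1.05 to 1.4 over the EB array on the 7 ES arrays, with 29 to 32 of 34 members above 0. In the authors' deposited table CDK1 ran from 1.5 on ORMES6 A and B to -0.4 on ORMES13, and BUB1 from 1.6 to 2.1. The authors' deposited tables of probe sets upregulated in a line held 30 members for ORMES6 A, 29 for ORMES7, 25 for ORMES9, 28 for ORMES10 and 27 for ORMES13, where 6.95% to 10.2% of all probe sets were listed. Of the 34 members, 23 were in all 5 of the authors' deposited tables, which shared 2.71% of all probe sets, and CCNE2, CDK2 and AURKB were in none.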

How the data were processed

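Total RNA from 9 samples was hybridised to Affymetrix Rhesus arrays. Signals are intensities on a linear scale that the authors deposited, and the labels name MAS5 without a version. Detection p-values, per the file headers for 1 ORMES6 array, the other 4 lines and, for 12094 probe sets, the fibroblasts, count as Present when under 0.05 and as Absent when over 0.065. The authors also deposited log2 signal log ratios against the differentiated array, per the file headers. Deposited detection calls of the EB array did not follow its signals, per the file headers a call for each probe set: the 23355 Present probe sets exceeded the 28652 Absent ones by 0.08 in mean log2(signal + 16), against 3.02 to 3.12 in ORMES7 to ORMES13 and 3.65 in the fibroblasts. They were used only for this check. Another 135 columns of per-sample values were not used.

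Of the probe sets, 99 controls and 3 lacking a value were dropped, which left 52763, and 40637 of them carried 1 gene symbol. Of 19825 symbols, 479 were updated through the macaque reference table or by hand (CDK1 was listed as CDC2, AURKA as STK6 and NDC80 as KNTC2). Every member is named, and other genes mostly by the largest difference in their list, while RAD21, STAG2, CDC27, RB1, CDK6, CCND1 and CCND2 were chosen after their values were seen. The members, lists and tests were chosen with earlier results of these data known.

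The log2(signal + 16) values were fitted in R 4.3.3 by limma 3.58.1 (lmFit, eBayes with trend, 4 residual and a median of 5.04 prior degrees of freedom). The 5 lines were the replicates, ORMES6 was averaged, and the EB and fibroblast arrays were taken to have the spread of the lines, so the p-values rest on differences between lines. The F test had 2 residual degrees of freedom. The fit was checked on simulated data. Alternatives were the offset, scaling, a filter, the probe set rule, replication, the trend, single arrays left out, spike level and a 2-fold threshold. The number of arrays limits the precision. The planned count of promoter motifs was not run.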

Additional observations from a re-analysis of the deposited data

Results flagged for a closer look

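A Dixon test over the 5 line values (critical ratio 0.71) was applied to 34 members. In 2 of them 1 line passed that ratio, a count near the 1 in 20 that chance gives. NUSAP1 was lower in ORMES6, at 12.13 on the log2(signal + 16) scale against 12.41 to 12.51 in the other lines (ratio 0.724). FOXM1 was lower in ORMES10, at 8.61 against 9.09 to 9.21 in the other lines (ratio 0.801). Neither gene was called between lines by limma's F test (adjusted p = 0.690 and 0.735). Without ORMES6 replicate C the F test adjusted p of NUSAP1 was 0.0217 and that of FOXM1 was 0.145, in a setting that called 33.0% of all genes.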

How the results depend on the processing

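Against the fibroblasts the count of members called (31) stayed within 27 to 32 under every alternative run, and was 31 whenever single arrays or lines were left out, where the count of all genes called (4197) ran from 3508 to 4441. The 2-fold threshold left 1240 genes. Centring each array on its median moved the median gene from 0.25 to -0.04 and turned the split of calls from 2599 higher and 1598 lower to 1755 and 2213, while quantile normalization moved the median gene to 0.12. AURKB turned to -0.12 under median centring. Against the EBs the members called (17) ran from 15 to 18 without single arrays or lines and were 12 with the median of probe sets, where CCNB2 turned to -0.028. They were 0 with spike level as a covariate and 0 beyond 2-fold. The genes called (1162) ran from 591 to 1341 without single arrays or lines (591 without ORMES10, 699 without ORMES7, 709 without ORMES9 and 722 without ORMES6 C), with 753 for the median of probe sets, 8 for the spike covariate and 73 beyond 2-fold. The genes called between lines (88) were 53 with quantile normalization, 152 with median centring, 4 without the variance trend and 0 to 6524 without 1 ORMES6 replicate, and the members called (0) ran from 0 to 21 there. The cause of these changes was not tested. Counting each member under each setting, calls were lost 6 times and gained 3 times against the fibroblasts, and lost 48 and gained 10 times against the EBs. More than 2-fold differences of EBs over fibroblasts, with alternatives chosen after seeing the data, were found in 20 to 28 members. A fit on ES arrays of like spike level could not be run against the EBs, since these came from 1 line. No paired analysis was possible because only ORMES6 has replicates and the groups share no replicate numbers. Deposited EB detection calls were set aside, so how far an EB level lies above background is unknown here.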

Other observations

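The D-type cyclins and CDK6 act before the members in the cycle. CDK6 had signals of 123.1 to 127.7 on the ORMES6 arrays, 249.6 on ORMES7, 311.8 on ORMES9, 275.5 on ORMES10 and 942.4 on ORMES13, against 2495 in the EBs and 652.7 in the fibroblasts, and was not called in either comparison (-2.96, adjusted p = 0.0600 for the EBs) or between lines (F test adjusted p = 0.0745). CCND1 had 432.5 to 1081 on the ORMES6 arrays, 566.2 on ORMES7, 1440.3 on ORMES9, 1554 on ORMES10 and 2397 on ORMES13, against 3425 in the EBs and 4664 in the fibroblasts (-1.51 and -1.96, neither called). CCND2 ran from 5502 to 7228 on the ES arrays, with 4959 in the EBs and 2917 in the fibroblasts, and was called against the fibroblasts (1.14, adjusted p = 0.00628). On the same arrays the 10 fibroblast marker genes, THY1 included, had their lowest sums on ORMES6 A and B and the highest ES sum on ORMES13. The part of other cells in the levels of CDK6 and CCND1 was not tested.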
